A study of Mus musculus with 8 samples.

Results

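The cyclin-dependent kinases (CDKs) Cdk1, Cdk2 and Cdk4, the CDK inhibitors Cdkn1b, Cdkn1c, Cdkn2b, Cdkn2c and Cdkn2d, the CDK-binding phosphatase Cdkn3 and the CDK subunit Cks1b were followed in small intestinal crypts of irradiated mice with and without the miR-29ab1 locus. The 10 genes were taken by symbol from a table of 17634 genes, and all 10 were among the 12908 genes that had enough reads to be tested. Both groups were C57BL/6N mice sampled 3 days after irradiation: 4 libraries carried the label WT for genotype, and the other 4 the label miR-29ab1-/-, called KO here. Total RNA of the crypts was extracted with TRIzol and sequenced. Every library came from an irradiated mouse or mice, so the comparison is of genotype after irradiation, and an unirradiated group was not analysed here. The labels give no radiation dose, age or sex and do not say whether a library held 1 animal or a pool, so the p-values measure the spread between these libraries only. The deleted miRNA genes were not analysed here, and the genotype labels were therefore not checked by the targeted gene.

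Progress through the cell cycle depends on CDKs, which are active only when bound to a cyclin. CDK4 with D-type cyclins and CDK2 with E-type cyclins act before and at the start of DNA synthesis, partly by phosphorylating the retinoblastoma protein, and CDK1 with A- and B-type cyclins drives entry into mitosis. Inhibitors of the INK4 family (Cdkn2b, Cdkn2c and Cdkn2d here) bind CDK4 and its relative CDK6, whereas those of the CIP/KIP family (Cdkn1b and Cdkn1c here) bind cyclin-CDK complexes, above all those of CDK2. In the intestine, division takes place in the crypt, where stem cells and their transit-amplifying daughters cycle, and cells leave the cycle as they differentiate and move towards the villus.

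Many promoters of cell cycle genes carry short elements through which E2F factors and the DREAM and MuvB complexes act. These are the E2F site and the cell cycle homology region (CHR). CCAAT boxes, which often stand near the CHR, are a separate element and not a site of these complexes. RefSeq promoters (GRCm38.p6, 250 bases before to 50 bases after the start site) were found for 9 of the 10 genes, in 10 records. These were searched on both strands for TTTGAA or TTCGAA (CHR), TTTGGCG or TTTCCCG (E2F) and CCAAT. No match shared a base with another. The 4 promoters with a CHR match are printed because 3 of them belong to Cdk1, Cks1b and Cdkn3, the members with the largest decreases, and the fourth to Cdkn2b, the member with the largest increase. Capitals mark the matches, so that ATTGG is a CCAAT box on the other strand, TTCAAA a CHR and CGCCAAA an E2F match on the other strand. The Cdk1 promoter lies at chr10:69352863-69353162 (minus strand), that of Cks1b at chr3:89418242-89418541 (minus strand), that of Cdkn3 at chr14:46760291-46760590 (plus strand) and that of Cdkn2b at chr4:89310983-89311282 (minus strand).
Cdk1: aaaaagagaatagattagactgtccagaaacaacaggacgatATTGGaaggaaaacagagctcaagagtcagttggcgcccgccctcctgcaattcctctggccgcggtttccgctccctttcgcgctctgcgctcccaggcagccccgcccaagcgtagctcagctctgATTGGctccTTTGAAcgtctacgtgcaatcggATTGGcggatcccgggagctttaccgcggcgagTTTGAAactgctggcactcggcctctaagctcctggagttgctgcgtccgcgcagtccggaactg
Cks1b: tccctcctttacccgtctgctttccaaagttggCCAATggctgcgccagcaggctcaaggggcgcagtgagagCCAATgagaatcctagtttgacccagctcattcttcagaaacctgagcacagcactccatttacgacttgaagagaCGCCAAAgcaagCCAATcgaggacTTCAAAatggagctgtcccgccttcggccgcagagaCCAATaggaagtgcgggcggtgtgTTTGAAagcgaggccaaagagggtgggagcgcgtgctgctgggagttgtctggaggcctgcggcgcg
Cdkn3: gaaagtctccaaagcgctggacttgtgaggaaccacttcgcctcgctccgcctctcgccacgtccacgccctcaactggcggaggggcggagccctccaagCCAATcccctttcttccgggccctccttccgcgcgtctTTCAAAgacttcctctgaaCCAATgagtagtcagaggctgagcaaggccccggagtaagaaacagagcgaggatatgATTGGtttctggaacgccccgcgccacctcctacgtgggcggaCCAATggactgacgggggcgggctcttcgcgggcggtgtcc
Cdkn2b: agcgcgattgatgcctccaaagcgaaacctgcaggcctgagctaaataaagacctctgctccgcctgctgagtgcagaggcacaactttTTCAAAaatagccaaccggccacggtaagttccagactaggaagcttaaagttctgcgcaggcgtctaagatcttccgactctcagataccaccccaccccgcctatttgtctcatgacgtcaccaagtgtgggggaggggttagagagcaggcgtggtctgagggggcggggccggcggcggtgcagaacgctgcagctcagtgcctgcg

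In the Cdk1 promoter CHR matches began at −71 and −15, counted from the start site, and CCAAT boxes at −208, −80 and −48. In that of Cks1b they began at −77 and −17, with CCAAT boxes at −217, −177, −89 and −41 and an E2F match at −101. The Cdkn3 promoter had 1 CHR match at −111 and 4 CCAAT boxes, the nearest to the CHR at −92, and that of Cdkn2b had 1 CHR match at −161 and no CCAAT box. Of the 5 remaining genes with a promoter, Cdk2 had an E2F match at −139 and a CCAAT box at −45, Cdkn1b had 3 CCAAT boxes, Cdkn2c (in 1 of its 2 records) and Cdkn2d had 1 each, and Cdk4 had no match to any of the letters. A CHR match was thus present in 4 members, an E2F match in 2 and a CCAAT box in 7, and CHR and CCAAT together in Cdk1, Cks1b and Cdkn3. Among all 32851 promoters of the same length, 19.2 percent held a CHR match, 4.84 percent an E2F match, 37.4 percent a CCAAT box and 7.52 percent a CHR match together with a CCAAT box. Among the 13140 promoters of tested genes, the shares were 14.2, 7.64, 37.8 and 5.88 percent. Short motifs match often by their length alone, and a match here is a string of letters, not a bound site. Only the exact letters named above were searched. A promoter without a match, such as that of Cdk1 for E2F, may therefore still hold another form of the element.

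The deleted locus encodes miR-29a and miR-29b, which share a seed (bases 2 to 8, in capitals) and so recognise the same letters in a 3′ UTR. Their mature sequences are printed because the deleted locus encodes them, with the seed match in each of the 2 members that had one. Other miRNA genes that may carry this seed were not analysed here, so loss of all miRNA with this seed cannot be assumed.
mmu-miR-29a-3p: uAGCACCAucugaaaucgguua
mmu-miR-29b-3p: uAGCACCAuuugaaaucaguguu
Cdk2 site: ctgttttcTGGTGCTgactgcta
Cdkn2d site: gtggagcaTGGTGCTgatgtcaa
The miRNA sequences are from RefSeq (GRCm38.p6, minus strand, chr6:31062673-31062694 and chr6:31063025-31063047). With the longest 3′ UTR that GENCODE M21 (GRCm38) gives for a gene, the match to all 7 seed bases stood at base 678 of 1167 in Cdk2 and at base 187 of 907 in Cdkn2d. The other 8 members had no match. At least 1 match was thus present in 2 of 10 members, beside 15.5 percent of 12648 tested genes. Of these 2 transcripts, Cdk2 was lower in the knockout libraries and Cdkn2d was not called.

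Expression is given in CPM, read counts divided by library size and scaled between libraries by edgeR's trimmed-mean factors, and a gene was called when the adjusted p of edgeR's quasi-likelihood test over all 12908 genes was under 0.05. In KO crypts 6 members were lower (Cdk1, Cdk2, Cdk4, Cdkn2c, Cdkn3 and Cks1b), 2 were higher (Cdkn1b and Cdkn2b) and 2 were not called (Cdkn1c and Cdkn2d). Of all tested genes 23.1 percent were called lower and 24.2 percent higher, 47.3 percent in all. The median log2 fold change of the 10 genes was −0.65, against 0.034 over all tested genes. The 8 called members had no overlap between the 4 WT and the 4 KO libraries, which held for 45.4 percent of all tested genes (22.7 percent in each direction). Because these are bulk libraries, fewer dividing cells and less RNA per dividing cell cannot be told apart in any of these values.

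Total counts ran from 10719668 to 16231099 per library in WT and from 9481201 to 14612798 in KO. Markers of Lgr5+ stem cells and Paneth cells, which define the crypt, were present in every library, with summed levels of 1593 to 1933 CPM in WT and 964 to 1578 in KO for 12 stem cell genes (7 called lower) and of 8979 to 13042 and 9777 to 30698 CPM for 7 Paneth cell genes. Of the latter, edgeR called 0 (1 at an unadjusted p under 0.05, and 1 by DESeq2). Summed markers of enterocytes ran from 1766 to 11593 CPM in WT and from 28005 to 93703 in KO (15 of 15 called higher). Those of goblet cells ran from 2008 to 4634 and 9291 to 15005 CPM (6 of 8), and those of tuft cells from 14.9 to 26.2 and 49.5 to 65.7 (8 genes, 6 of 7 tested). Those of enteroendocrine cells ran from 376 to 689 and from 729 to 940 CPM (5 of 10 higher). The shares over all tested genes were 24.2 percent higher and 23.1 percent lower. Summed markers of fibroblasts and smooth muscle were 16.8 to 190 CPM in WT and 19.3 to 230 in KO (10 genes, 1 of 7 tested higher). They were highest in WT replicate 3 and KO replicates 3 and 4. Those of endothelial cells were 2.51 to 10.5 and 3.18 to 24.4 CPM (6 genes, 5 tested), and those of immune cells 37.6 to 131 and 79.8 to 511 CPM (8 genes, 7 tested). Of the 12 tested endothelial and immune genes, 0 were called by edgeR, 0 by DESeq2 and 0 had an unadjusted p under 0.05. No enterocyte, goblet, tuft, enteroendocrine, stem or Paneth marker in the table was at 0 in a library, while 2 fibroblast, 2 endothelial and 1 immune marker were. Marker RNA of differentiated cells therefore moved with genotype, and its part in the values of the CDK genes was not tested. Replicate 4 of both groups had 3 and 1 counts of Y-linked genes, against 1285 to 2061 in the other 6 libraries. Leaving out replicate 4 of both groups therefore also leaves out the only libraries almost without Y-linked counts.

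Cdk1, the kinase of mitotic entry (NCBI gene 12534, chromosome 10, 69335146 to 69352938, minus strand, GRCm38), stood at 94.8, 96.4, 85.2 and 96.4 CPM in WT replicates 1 to 4 and at 32.3, 52.3, 39.6 and 41.6 CPM in KO replicates 1 to 4. The highest KO library lay well below the lowest WT library. The decrease was 2.25-fold (log2 −1.17 ± 0.15 SE, edgeR adjusted p = 0.00108), from a mean of 93.2 ± 5.39 to 41.5 ± 8.29 CPM (SD, n = 4). Cdk2, which acts with cyclins E and A around DNA synthesis, stood at 57.2, 48.2, 55.5 and 67.2 CPM in WT and 20.9, 28.9, 36.7 and 42.9 CPM in KO. The groups did not overlap, but WT replicate 2 and KO replicate 4 came within a few CPM of each other. Its decrease was 1.76-fold (log2 −0.82 ± 0.21 SE, edgeR adjusted p = 0.0116). Cdk4, the partner of D-type cyclins and the most abundant member, stood at 315, 327, 292 and 296 CPM in WT and 133, 211, 165 and 163 CPM in KO. Again no KO library reached the WT range, and KO replicate 2 was the highest of its group, as it was for Cdk1. Cdk4 was lower by 1.83-fold (log2 −0.87 ± 0.15 SE, edgeR adjusted p = 0.00205).

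Cdk4 (gene 12567, chromosome 10, 127063534 to 127067920, plus strand) overlaps Tspan31 on the opposite strand, and their transcripts share 641 identical bases. The strandedness of the libraries is not given in the sources used here, so reads in the shared stretch cannot be assigned to either gene. Tspan31 itself, a tetraspanin, stood at 70.03 ± 6.66 CPM in WT and 69.5 ± 13.3 CPM in KO (SD, n = 4) and was not called (log2 −0.01, edgeR adjusted p = 0.961). Cdk2 (gene 12566, chromosome 10, 128697939 to 128705031, minus strand) overlaps the pigment cell gene Pmel on the opposite strand, which was near 1 CPM in both groups (0.838 ± 0.244 in WT and 1.26 ± 0.539 in KO, SD, n = 4). Cdkn1c overlaps the antisense transcript Gm44732, which was not analysed here.

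**Figure D1:**
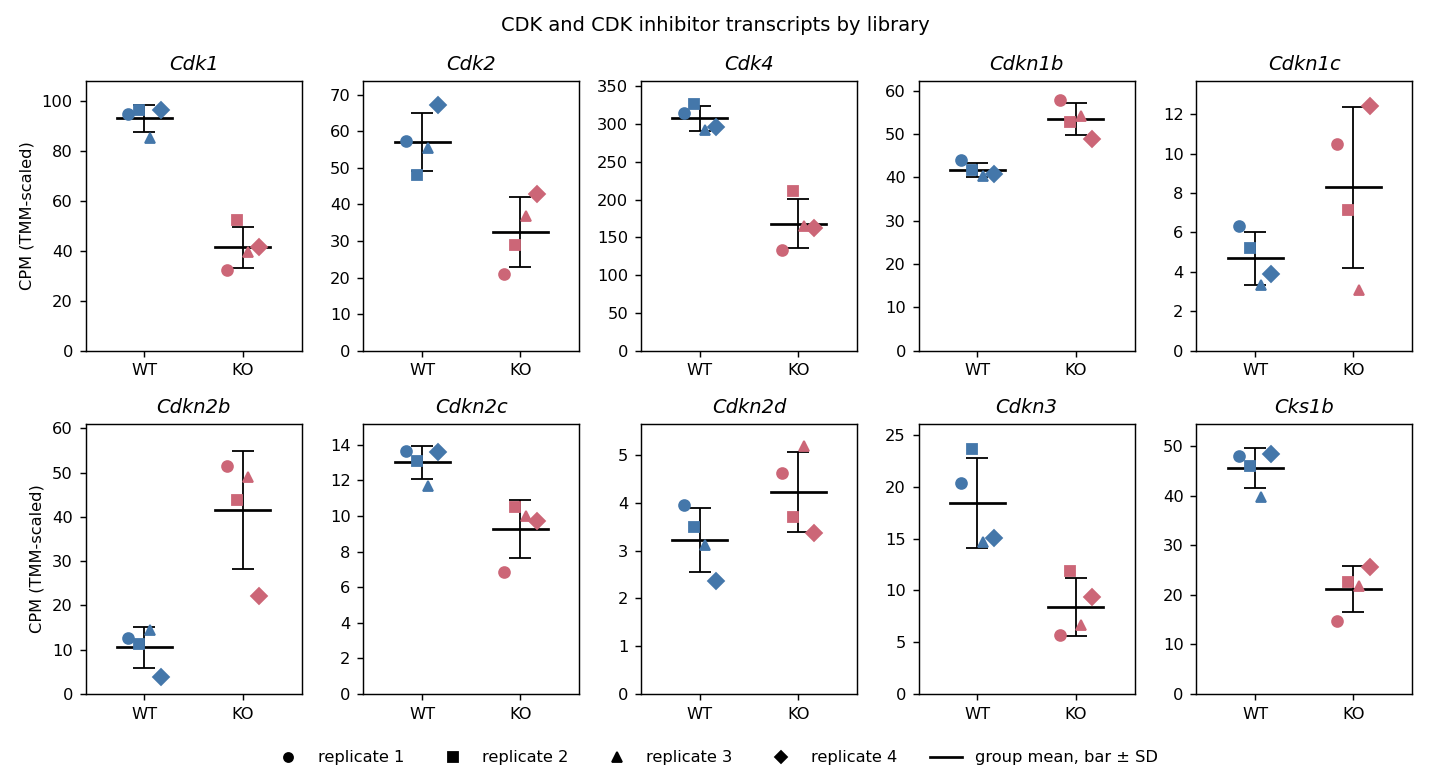
Levels of the 10 genes in each library, in CPM scaled by trimmed-mean factors on axes that start at 0; each point is 1 library, its shape gives the replicate number, the line is the group mean and the bar the SD of 4 libraries. In 8 of the 10 panels the WT and KO points do not overlap; the exceptions are Cdkn1c, where KO replicate 3 at 3.09 CPM lies below all WT points, and Cdkn2d.

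Cdkn1b (p27, gene 12576, chromosome 6, 134920401 to 134925513, plus strand), which binds and inhibits cyclin-CDK2 complexes in resting cells, stood at 44.1, 41.6, 40.4 and 40.7 CPM in WT and 57.8, 52.7, 54.3 and 48.9 CPM in KO. Every KO library was above every WT library in CPM, and on the log2 scale the spread within each group was the smallest of the 10 genes. On the deposited FPKM scale the groups overlapped, with 19.12 to 21.02 in WT and 19.08 to 25.06 in KO. The increase in CPM was 1.28-fold (log2 0.36 ± 0.09 SE, edgeR adjusted p = 0.0110). It depended on the scaling: with total counts in place of trimmed-mean factors, which moved the median of all tested genes to −0.23, the log2 change of Cdkn1b was 0.089 and it was not called (edgeR adjusted p = 0.562). Without replicate 4 of both groups the change was 0.35 (edgeR adjusted p = 0.0534).

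Cdkn1c (p57, gene 12577, chromosome 7, 143458339 to 143461050, minus strand), the other CIP/KIP inhibitor, is expressed from the maternal copy of an imprinted domain. It stood at 6.34, 5.202, 3.35 and 3.91 CPM in WT and 10.5, 7.16, 3.09 and 12.4 CPM in KO. Of the KO libraries, 3 were above the whole WT range and replicate 3 was below it, so the groups overlapped. The log2 difference of 0.82 ± 0.40 (SE) had a 95 percent interval (on 6 residual degrees of freedom) from −0.16 to 1.81 and did not pass the test (edgeR adjusted p = 0.121). Without KO replicate 3 it was 1.10 (edgeR adjusted p = 0.0130), so that library decided the call. That library was also among the 3 with the highest fibroblast marker sums, whose part in the Cdkn1c value was not tested; without those 3 libraries the difference was 0.79 (edgeR adjusted p = 0.0633).

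Cdkn2b (p15, gene 12579, chromosome 4, 89306299 to 89311039, minus strand), an inhibitor of CDK4 and CDK6 known as a target of TGF-β signalling, changed most. It stood at 12.6, 11.2, 14.4 and 3.74 CPM in WT and 51.5, 43.8, 49.0 and 22.2 CPM in KO. Replicate 4 was the lowest library in both groups, and its KO value still exceeded the highest WT value. The same replicate was the one almost without Y-linked counts, and a part of sex in the Cdkn2b values was not tested. The increase was 3.97-fold (log2 1.99 ± 0.41 SE, edgeR adjusted p = 0.00398), from 10.5 ± 4.69 to 41.6 ± 13.3 CPM (SD, n = 4). Without replicate 4 of both groups it was 1.87 on the log2 scale (edgeR adjusted p = 0.00358). Among all tested genes, 12.9 percent were called higher with at least a 2-fold change.

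Cdkn2c (p18, gene 12580, chromosome 4, 109660876 to 109667189, minus strand), another INK4 inhibitor, went the other way. Its levels were 13.7, 13.1, 11.7 and 13.6 CPM in WT and 6.86, 10.5, 9.97 and 9.73 CPM in KO. All KO libraries were below all WT libraries, with KO replicate 1 the lowest. The decrease of 1.40-fold (log2 −0.49 ± 0.17 SE, edgeR adjusted p = 0.0392) was the smallest of the 6, and leaving out WT replicate 1, 2 or 4 or KO replicate 1 ended the call (edgeR adjusted p = 0.0941, 0.0779, 0.0904 and 0.0538). Cdkn2d (p19, gene 12581, chromosome 9, 21288410 to 21291407, minus strand), the third, stood at 3.95, 3.50, 3.11 and 2.37 CPM in WT and 4.63, 3.71, 5.19 and 3.37 CPM in KO. The groups overlapped, and with 36 to 56 counts per library it was measured on few reads. The log2 difference of 0.39 ± 0.25 (SE), with a 95 percent interval from −0.23 to 1.01, did not pass the test (edgeR adjusted p = 0.231). The 3 INK4 genes thus showed an increase, a decrease and a difference that was not called.

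Cdkn3 (gene 72391, chromosome 14, 46760541 to 46771669, plus strand) encodes a phosphatase that removes the activating phosphate from the CDK T-loop. It stood at 20.4, 23.7, 14.7 and 15.1 CPM in WT and 5.66, 11.8, 6.68 and 9.36 CPM in KO. WT replicates 3 and 4 were the low pair of their group and still exceeded all KO libraries. The decrease was 2.20-fold (log2 −1.13 ± 0.26 SE, edgeR adjusted p = 0.00719). Cks1b (gene 54124, chromosome 3, 89415472 to 89418383, minus strand) encodes a small CDK-binding subunit that also helps the ubiquitin ligase component Skp2 to recognise p27. Its levels were 48.1, 46.1, 39.8 and 48.5 CPM in WT and 14.8, 22.6, 21.7 and 25.6 CPM in KO. The ranges were far apart, and KO replicate 1 was the lowest library, as it was for Cdk1, Cdk2, Cdk4, Cdkn2c and Cdkn3. Cks1b was lower by 2.15-fold (log2 −1.11 ± 0.17 SE, edgeR adjusted p = 0.00139). Cdk1, Cdkn3 and Cks1b passed a 2-fold decrease, as did 4.20 percent of all tested genes.

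**Figure D2:**
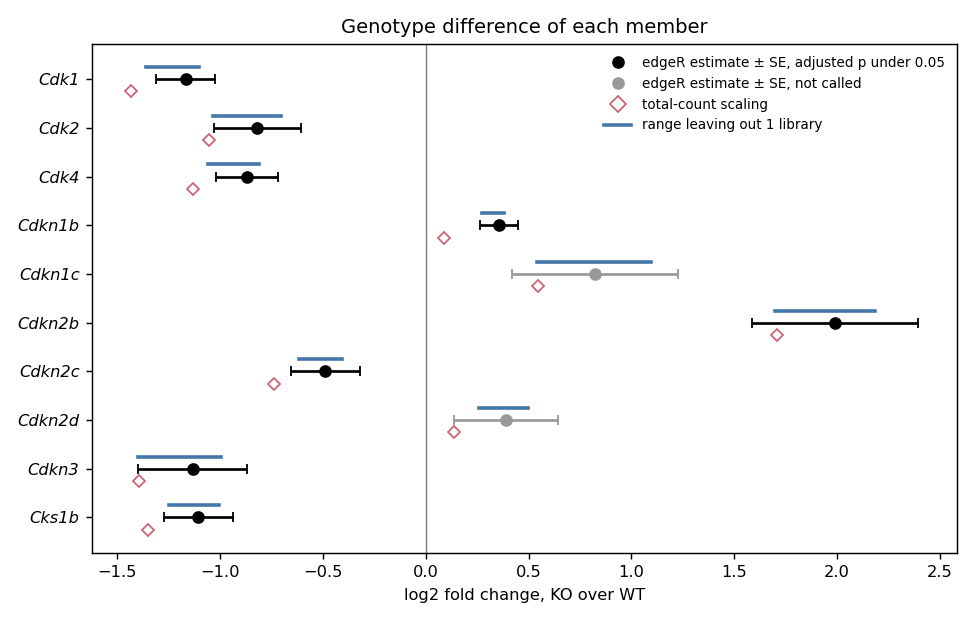
Log2 fold change, KO over WT, of each of the 10 genes; points are the edgeR estimate with its SE (black when the adjusted p was under 0.05, grey otherwise), diamonds the estimate under total-count scaling, and blue lines the range when 1 library at a time was left out. No symbol or line crosses 0; Cdkn1b under total-count scaling is nearest to it at 0.089.

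Levels were compared between genes on the deposited FPKM scale, which divides by transcript length. In WT crypts Cdk4 was the highest at 277 ± 8.25 FPKM (SD, n = 4), followed by Cks1b at 78.8 ± 4.04, Cdk1 at 37.3 ± 1.30, Cdk2 at 29.2 ± 5.07, Cdkn3 at 28.3 ± 5.64 and Cdkn1b at 20.1 ± 0.791. The INK4 genes Cdkn2b (9.11 ± 4.27) and Cdkn2c (8.02 ± 0.526) came next, and Cdkn2d (3.10 ± 0.548) and Cdkn1c (2.83 ± 0.675) were the lowest. Library ranges of neighbours in this order overlapped for Cdk2 and Cdkn3, for Cdkn2b and Cdkn2c and for Cdkn2d and Cdkn1c. In KO crypts Cdk4 was again first at 127 ± 26.7 FPKM and Cks1b had a mean of 30.8 ± 8.98, but Cdkn2b followed at 29.6 ± 9.79 and Cdkn1b at 21.3 ± 2.60. Cdk2 (14.05 ± 5.66), Cdk1 (13.8 ± 2.97), Cdkn3 (10.6 ± 3.31), Cdkn2c (4.995 ± 1.30), Cdkn1c (4.11 ± 2.10) and Cdkn2d (3.39 ± 0.937) made up the rest. In KO only the steps from Cdk4 to Cks1b and from Cdkn3 to Cdkn2c separated neighbours without overlap. Cdkn2b therefore had rank 7 in WT and rank 3 in KO by mean FPKM, and its range in KO overlapped those of Cks1b and Cdkn1b.

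**Figure D3:**
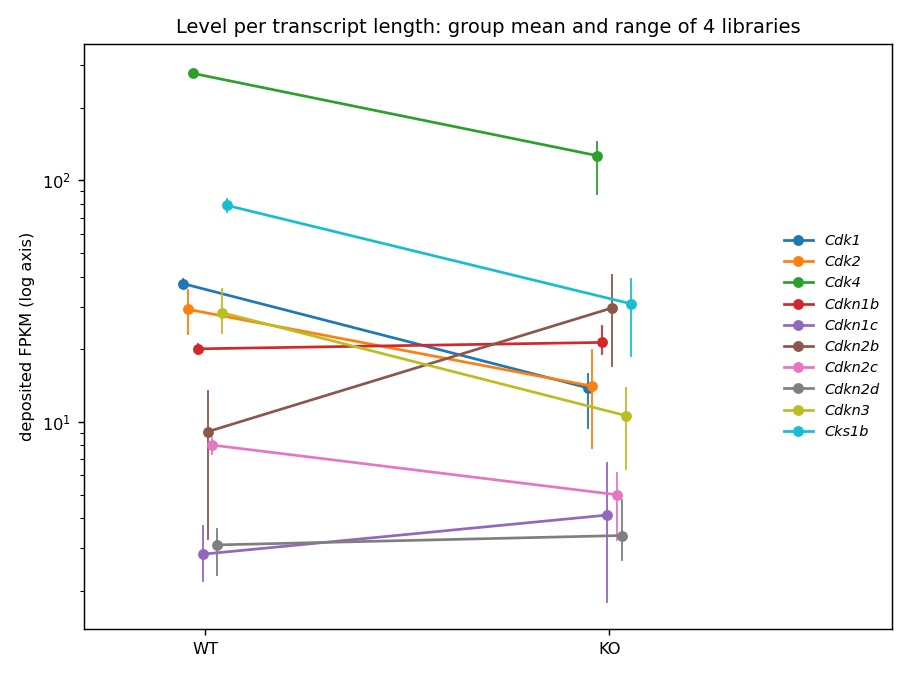
Deposited FPKM of the 10 genes on a log axis in WT and KO crypts; points are means of 4 libraries and vertical lines run from the lowest to the highest library. The lines of Cdkn2b (9.11 to 29.6) and Cdk1 (37.3 to 13.8) cross between the groups, while Cdk4 stays above all others.

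A ratio of 2 members within a library does not depend on the scaling, and 10 ratios were set up to ask whether inhibitors and their kinases changed equally. With 4 libraries against 4 the exact two-sided permutation test has 70 assignments and cannot go below 0.0286. Cdkn2b relative to Cdk4 was higher in KO by 2.95 on the log2 scale, or 7.72-fold, Cdkn2d relative to Cdk4 by 1.26 (2.40-fold) and Cdkn2c relative to Cdk4 by 0.39 (1.31-fold). Cdkn1b relative to Cdk2 was higher by 1.21 (2.31-fold). In these 4 ratios, and in that of Cdk1 to Cdk4, which was lower by 1.23-fold (log2 −0.30), all KO libraries lay on one side of all WT libraries, with an exact permutation p of 0.0286 each. After adjustment over the 10 ratios this was 0.0571, so none passed 0.05. In these libraries Cdkn2c was thus lower in KO by a smaller factor than Cdk4. How many of all tested genes separate in the same way against Cdk4 or Cdk2 was not computed. Both kinases fell (log2 −0.87 and −0.82), while the median of all tested genes was 0.034. An unchanged gene would therefore also rise against them, and the lack of overlap alone is no result about the inhibitors.

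The other 5 ratios overlapped between groups. Cdkn1c relative to Cdk2 differed by 1.52 (exact permutation p = 0.0857, adjusted 0.143) and Cdk1 relative to Cdk2 by −0.33 (exact permutation p = 0.257, adjusted 0.367). Between libraries of the same replicate number, the former was higher in KO in 4 of 4 pairs and the latter lower in 4 of 4. The exact paired permutation p was 0.125 for each, the smallest that 4 pairs allow, so the paired test could not pass 0.05. This pairing of the ratios was added after the data were seen. Cdk2 relative to Cdk4, Cdkn3 relative to Cdk1 and Cks1b relative to Cdk1 differed by 0.03, 0.03 and 0.06 (exact permutation p = 0.886, 0.771 and 0.657). Leaving out 1 library at a time put these last 3 between −0.13 and 0.19, between −0.07 and 0.14 and between −0.03 and 0.14. At this number of libraries no difference in the decrease of these pairs was detectable.

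Because proliferation genes were lower as well, each member was also set against the mean log2 CPM of 15 of them (among them Mki67, Top2a, Pcna and Mcm2 to Mcm7) in the same library. This comparison was added after the values had been seen. All 15 were called lower, with a median log2 change of −1.21, and their mean fell by 1.15 on the log2 scale. Relative to it, Cdk1 differed between the groups by −0.04, Cks1b by 0.02 and Cdkn3 by less than 0.01 on the log2 scale (exact permutation p = 0.743, 0.686 and 0.971). Cdk2 and Cdk4 were 0.29 and 0.26 above it, with overlap (exact permutation p = 0.114 for both). Each was higher in 4 of 4 pairs of the same replicate number. The exact paired permutation p was 0.125 for each, the smallest possible, so the paired test could not pass 0.05. The 5 inhibitors were higher relative to proliferation genes in every KO library than in any WT library: Cdkn2b by 3.21, Cdkn1c by 1.82, Cdkn2d by 1.52, Cdkn1b by 1.501 and Cdkn2c by 0.65 on the log2 scale (exact permutation p = 0.0286 each, adjusted 0.0571). The same held for 77.1 percent of the 12893 tested genes outside the list, whose median was 1.16 above it, so the lack of overlap is no result about the inhibitors. Against that median Cdkn2b lay far above, Cdkn1c, Cdkn2d and Cdkn1b lay moderately above, and Cdkn2c, Cdk2 and Cdk4 lay between it and the proliferation genes. These distances from the median were not tested. In the edgeR comparison Cdkn1c and Cdkn2d were not called, and Cdkn1b was not called under total-count scaling.

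**Figure D4:**
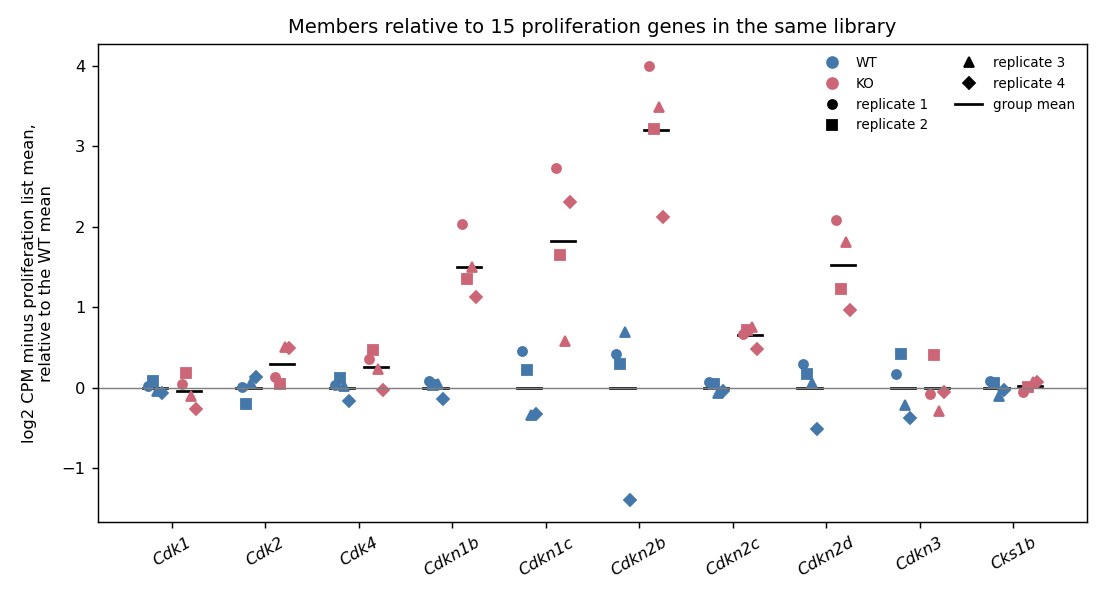
Log2 CPM of each gene minus the mean log2 CPM of 15 proliferation genes in the same library, shown relative to the WT mean; blue points are WT and red points KO libraries, shapes give the replicate number and lines the group means. Cdk1, Cdkn3 and Cks1b scatter around 0 in both groups, and the 5 inhibitors lie above the WT points in all 4 KO libraries, from 0.65 for Cdkn2c to 3.21 for Cdkn2b on average.

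The partners and regulators of these genes were read from 5 lists with 61 tested genes, of which 30 were called lower, 6 higher and 25 were not called. The shares over all tested genes were 23.1 percent lower and 24.2 percent higher. Of 8 cyclins that bind the 3 kinases, 7 fell, with a median log2 change of −1.12 over the list. The mitotic cyclin Ccnb1 stood at 118, 131, 104 and 120 CPM in WT and 37.4, 57.9, 47.9 and 57.3 CPM in KO, a log2 change of −1.24 ± 0.15 (SE, edgeR adjusted p = 0.00108). Ccne1, the partner of CDK2, had a log2 change of −1.15 ± 0.14 (SE, edgeR adjusted p = 0.00108), from 36.1 ± 3.08 to 16.24 ± 2.63 CPM (SD, n = 4). The D-type cyclins differed from each other: Ccnd1 and Ccnd3 were called lower (log2 −1.08 and −0.67), whereas Ccnd2 was not called (log2 0.25, edgeR adjusted p = 0.150). Ccnd1, Ccnd2 and Ccnd3 are named here after their values were seen.

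Among 8 genes of the CDK-activating kinase, the Wee kinases and the Cdc25 phosphatases, which set the phosphorylation of CDKs, 5 fell and 3 were not called. Cdc25c and Cdc25b, which remove inhibitory phosphates from CDK1, changed by −1.28 ± 0.19 and −0.92 ± 0.13 on the log2 scale (SE, edgeR adjusted p = 0.00136 and 0.00121). The inhibitory kinase gene Pkmyt1 and the activating-kinase genes Ccnh and Cdk7, named after their values were seen, made up the 5 (log2 −0.82, −0.55 and −0.35). Of 8 subunits of ubiquitin ligases that act on CDK inhibitors or cyclins, 3 fell and 5 were not called, with a list median of 0.06. Calls in either direction made up 47.3 percent of all tested genes, and those lower in KO 23.1 percent. The decreases included Skp2, which targets p27, and Cdc20, an activator of the anaphase-promoting complex. Skp2 stood at 36.3, 37.6, 37.2 and 45.8 CPM in WT and 10.8, 20.2, 17.5 and 18.5 CPM in KO. The KO libraries were all below the WT libraries, and the log2 change was −1.23 ± 0.19 (SE, edgeR adjusted p = 0.00148). Cdc20 changed by −1.23 ± 0.14 (SE, edgeR adjusted p = 0.00108), and the third, the RING subunit Rbx1, by −0.35, a gene named after its value was seen. At the transcript level Cks1b and Skp2, which act together on p27, were thus lower. Cdkn1b was higher, but it was not called under total-count scaling (log2 0.089, edgeR adjusted p = 0.562). A link between these changes was not tested, and p27 protein was not measured.

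Of 16 pocket proteins, E2F factors and DREAM components, 10 fell, 3 rose and 3 were not called. The retinoblastoma gene Rb1 stood at 35.03, 39.5, 33.0 and 32.9 CPM in WT and 96.0, 77.4, 59.2 and 72.0 CPM in KO. Its groups were far apart, with a log2 change of 1.12 ± 0.15 (SE, edgeR adjusted p = 0.00116). Its relative Rbl2 (p130), found in the repressive DREAM complex of resting cells, rose by 1.07 ± 0.22 on the log2 scale (SE, edgeR adjusted p = 0.00405). The E2F partner gene Tfdp2, named after its value was seen, was the third to rise (log2 0.50). Mybl2, which replaces the pocket protein in the complex of dividing cells, changed by −1.53 ± 0.20, and the MuvB core gene Lin9 by −1.08 ± 0.15 (SE, edgeR adjusted p = 0.00115 and 0.00121). Of 21 other CDKs and CDK-like regulators, 5 fell, 3 rose and 13 were not called, with a median of −0.11. With 23.1 percent of all tested genes called lower and 24.2 percent higher, these counts are no result about the list. Cdk6, the other INK4-sensitive kinase, was among those not called (log2 −0.49, edgeR adjusted p = 0.0527), a gene named after its value was seen. Cks2, the paralog of Cks1b, and Cdk2ap1, a CDK2-associated protein, changed by −1.08 ± 0.13 and −0.88 ± 0.14 (SE, edgeR adjusted p = 0.00108 and 0.00180). Cdk18 and Cdk11b rose beside Cdkn1a, with log2 changes of 1.32 ± 0.15 and 0.67 ± 0.10 (SE, edgeR adjusted p = 0.00108 and 0.00153), but Cdk11b was not called under total-count scaling (log2 0.42, edgeR adjusted p = 0.0629). Named after their values were seen, Cdk20, Cdk5rap2 and Cdk8 were the other genes of this list to fall (log2 −1.68, −0.95 and −0.32).

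Cdkn1a (p21), the third CIP/KIP inhibitor and a target of p53, was called higher, from 314 ± 27.0 to 644 ± 138 CPM (SD, n = 4), a log2 change of 1.04 ± 0.18 (SE, edgeR adjusted p = 0.00195). Among the proliferation genes themselves, Bub1 and Birc5, of the spindle checkpoint and the chromosomal passenger complex, had log2 changes of −1.43 ± 0.14 and −1.30 ± 0.12 (SE, edgeR adjusted p = 0.00108 and 0.00104). The antigen Mki67 stood at 371, 293, 443 and 580 CPM in WT and 109, 139, 195 and 263 CPM in KO, a log2 change of −1.25 ± 0.30 (SE, edgeR adjusted p = 0.00845). Its WT libraries spread more than those of Cdk1, whose highest and lowest WT values were 96.4 and 85.2 CPM.

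**Figure D5:**
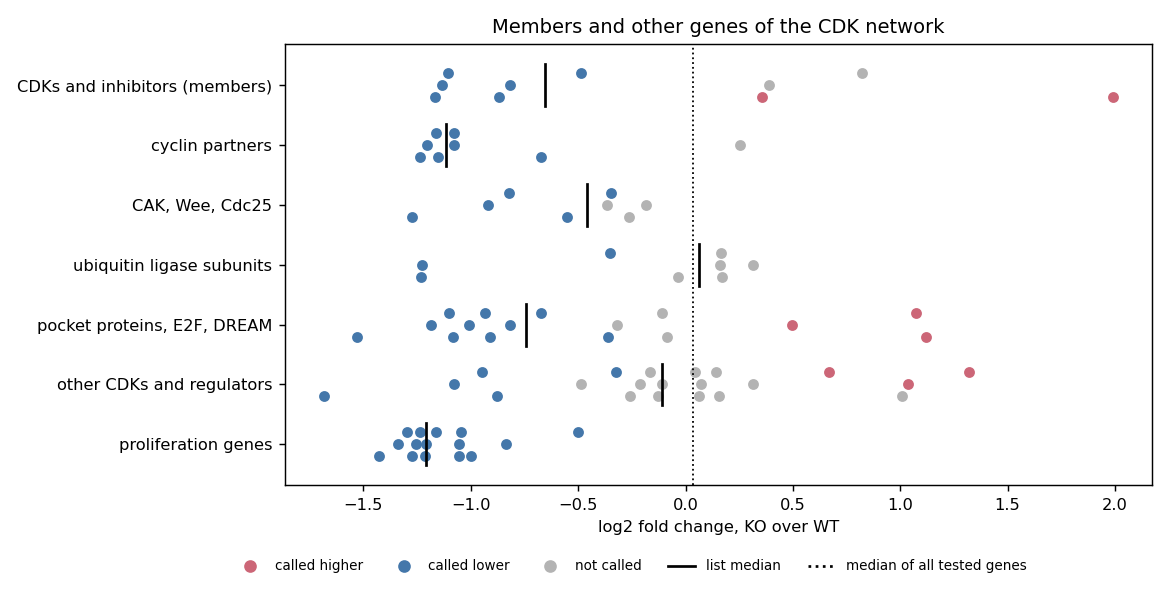
Log2 fold change, KO over WT, of the 10 genes and of the 76 genes in 6 lists of partners, regulators and proliferation genes; each point is 1 gene, coloured by its edgeR call, black lines are list medians and the dotted line is the median of all tested genes at 0.034. Cyclins and proliferation genes lie almost wholly to the left, with medians of −1.12 and −1.21, and the other CDKs centre near −0.11.

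How the members varied within the groups was described by the correlation of their log2 CPM after the group means were removed, over 8 libraries that share their scaling factors. Cdk1 varied with Cdk4 (r = 0.96), with Cdkn2c (r = 0.88) and with Cdkn3 (r = 0.84), and Cdkn2c with Cks1b (r = 0.92). The r of Cdk1 and Cdk4 rested mainly on KO replicates 1 and 2. Their log2 deviations were −0.34 and −0.32 in KO replicate 1 and 0.36 and 0.35 in KO replicate 2. The SD of log2 CPM was 0.086 and 0.077 in WT, against 0.285 and 0.274 in KO. Cdk2 stood apart from Cdk1 (r = 0.37) and from Cdk4 (r = 0.24) and was closer to Cks1b (r = 0.83). Cdkn1b ran against Cdk2 (r = −0.72) and with Cdkn2d (r = 0.73), and Cdkn2b ran with Cdkn2d (r = 0.81). Against the summed pattern of the 15 proliferation genes, r was 0.94 for Cks1b, 0.90 for Cdk2, 0.85 for Cdkn2c, 0.71 for Cdk1, 0.57 for Cdk4 and 0.49 for Cdkn3, and it was −0.80 for Cdkn1b, −0.65 for Cdkn2b, −0.60 for Cdkn2d and −0.07 for Cdkn1c. Against the summed cell type markers, r was farther from 0 than this for some members. With goblet and immune markers it was 0.88 and 0.78 for Cdkn2b and 0.95 and 0.92 for Cdkn2d. For Cks1b and Cdkn2c no marker sum reached the r of the proliferation genes. What these correlations reflect was not tested. All of them pool both groups and do not describe each group alone. WT replicate 4, for example, had the highest proliferation mean of its group but was below the group mean for Cdk4 and Cdkn3.

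By the same measure, the genes with the pattern most like each member were picked from 10942 genes (10943 for Cdkn2d). Such a choice by itself gives high values of r over 8 libraries. Genes with Gm, Rik or LOC names, or names that start with a digit, were passed over. The genes picked were Mrpl42, Hspe1 and Actl6a for Cdk1 (r = 0.99, 0.99 and 0.98), Ncapd3 and Nfix for Cdk2 (both 0.99) and Arfip2, Syce2 and Adi1 for Cdk4 (all 0.99). For the inhibitors they were Slc39a1, Rrp36 and Stx6 for Cdkn1b (r = 0.99, 0.98 and 0.97), Camkmt, Serpina1b and Eci3 for Cdkn2b (0.99, 0.99 and 0.98) and Tsr2, Rcc1l and Wdr4 for Cdkn2c (0.99, 0.99 and 0.98). Oxa1l, Pcbp2 and Lage3 came first for Cdkn3 (0.99, 0.98 and 0.98) and Hsp90ab1, Elac2 and Lipt2 for Cks1b (all 0.99). The first gene was Serinc5 for Cdkn1c (r = 0.99) and Bcas1 for Cdkn2d (r = 0.996).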

How the data were processed

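RNA of 8 crypt libraries, 4 per genotype, was compared; the labels gave each library's genotype and replicate number. Per the file headers, the authors deposited a read count per gene and library. Between 8.04 and 9.18 percent of values were not whole (all of those of the 10 genes were), so they were treated as deposited estimated counts and rounded. The other deposited columns were taken as FPKM, because their ratio to the counts followed the library totals. The submitters' processing notes list HISAT2 and DESeq2; for the counting program, build, annotation and strandedness, nothing is stated in the sources used here. The deposited group means were not used.

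Genes passing edgeR's filterByExpr (12908 of 17634) were fitted with genotype only by edgeR 4.0.16 in R 4.3.3 (trimmed-mean scaling, quasi-likelihood test, Benjamini-Hochberg threshold 0.05), a script first tested on simulated data. SEs are the log2 change divided by the square root of F. Log2 CPM used a prior count of 2. Ratios were tested by exact two-sided permutation over 70 assignments. Reads of overlapping genes were judged from GENCODE M21 transcripts. The precision rests on 4 libraries per group and on 31 to 5370 counts per gene and library for the 10 genes.

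Named genes are the 10 members, Cdkn1a, Mki67, up to 2 genes called in each direction with the smallest p from each list, and the genes most like each member (3 for a called member, 1 for the others); 1 gene that this rule takes is not reported here. Members and lists were chosen with earlier results of these data known. Alternatives were DESeq2 1.42.0, other scalings and filters, limma 3.58.1 on log2(FPKM + 0.1) and log2(FPKM + 1), the replicate block, and leaving out libraries. Deviations from the group means correlated at 0.34 to 0.56 between libraries with the same replicate number and at −0.55 to 0.53 between the others, 7 of 8 libraries correlated best with their own number, and the libraries were therefore treated as paired by number in that block; what a number marks is not stated in the labels.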

Additional observations from a re-analysis of the deposited data

Results flagged for a closer look

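In 2 of 96 groups of 4 libraries that were checked, 1 library lay apart from the other 3 by Dixon's criterion, against about 1 group in 20 by chance. Cdk1 in WT replicate 3 was at 85.2 CPM, below the 94.8 to 96.4 CPM of the other WT libraries and above every KO library. Skp2 in WT replicate 4 was at 45.8 CPM, above the 36.3 to 37.6 CPM of the other WT libraries. Both genes were called lower in KO by edgeR when that library was left out.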

How the results depend on the processing

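Over 18 alternatives no member reversed its direction, and Cdk1, Cdk2, Cdk4, Cdkn2b, Cdkn3 and Cks1b were called under each. The 2 members called higher became 1 under total-count scaling, under limma on log2(FPKM + 0.1) or log2(FPKM + 1), and without replicate 4 of both groups, because Cdkn1b lost its call. Its log2 change was then 0.089, 0.081, 0.078 and 0.35 (adjusted p = 0.562, 0.591, 0.590 and 0.0534 by edgeR and limma). Under total-count scaling 2089 genes were called higher and 4011 lower, in place of 3129 and 2976, with the median of all tested genes at −0.23; limma called 2040 and 2030 genes higher and 4289 and 4320 lower with the pseudocounts 0.1 and 1. Of the 61 listed partners and regulators, 4 were higher and 35 lower under total-count scaling, in place of 6 and 30. Cdkn2c was not called without replicate 4 of both groups (log2 −0.53, edgeR adjusted p = 0.0977) or without the 3 libraries with most fibroblast transcripts, a setting added after the data were seen (log2 −0.62, edgeR adjusted p = 0.0729), and ran from −0.62 to −0.41 when 1 library was left out. Cdkn1c ran from 0.54 to 1.10 and was called only without KO replicate 3 (edgeR adjusted p = 0.0130). Cdkn2d gave no value with a minimum mean of 50 counts. With the replicate block, which pairs libraries of the same number, Cdk1 changed by −1.19 and Cdkn2b by 2.06 on the log2 scale, 6 members were called lower and 2 higher, and no member's call changed. With the same pairing, a setting added after the data were seen, the exact test of the 10 ratios and of the 10 differences from proliferation genes cannot go below 0.125.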
